A study of Mus musculus with 13 samples.

Results

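The neutrophil granule and receptor genes followed in these aortas were 10 genes chosen by name. Ngp, Camp, Ltf, Lcn2 and Mmp8 encode granule proteins, S100a8, S100a9 and Retnlg encode abundant cytosolic or secreted proteins, and Cxcr2 and Csf3r encode surface receptors. They were 10 of the 56953 genes counted. Of the 10, 8 passed the filter on low counts and were tested among 18055 genes, and Ngp and Camp did not pass it. RNA came from whole aorta of ApoE-/- mice, which lack apolipoprotein E and develop atherosclerosis on a fatty diet. From the age of 6 weeks all mice ate a Western diet (WD) during 16 weeks, so genotype, diet and age were shared by the 4 groups. The groups were auranofin at 3 mg/kg/day (3 libraries), atorvastatin at 10 mg/kg/day (3 libraries), the combination of both drugs at these doses (2 libraries) and WD with no drug (5 libraries). Auranofin, a gold-containing drug for rheumatoid arthritis, inhibits thioredoxin reductase, and atorvastatin blocks HMG-CoA reductase, the enzyme that limits cholesterol synthesis. No aorta of another genotype or diet was analysed here.

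Neutrophils are short-lived phagocytes made in bone marrow. Their granules are filled in an order: azurophil granules in promyelocytes, then specific granules with lactoferrin, cathelicidin and lipocalin-2 in myelocytes, then gelatinase granules. Transcripts of most granule proteins are therefore most abundant in the marrow, whereas S100a8, S100a9, Cxcr2 and Csf3r are still transcribed in mature circulating cells. In atherosclerosis neutrophils enter the vessel wall in small numbers, and Lcn2 and Csf3r are also transcribed by cells other than neutrophils, macrophages among them. In RNA of a whole tissue, fewer cells of a type and less RNA per cell cannot be told apart.

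Library totals ran from 19703683 to 26079566 counts (median 23550042, 13 libraries). The 10 genes together took 190 to 4314 counts per library, or 0.000795% to 0.0194% of the total. Levels are given as CPM, the usual scaling of a gene's count to a common library total, at library sizes adjusted with TMM factors for differences in composition. The factors of auranofin 2 and WD 2, 0.629 and 0.639, were the lowest of the 13. These libraries stood apart in other ways. Mitochondrial genes took 38.8% of counts in auranofin 2, the highest share, and 26.9% in WD 2, against a lowest share of 9.36%. A score of short against long genes, the median log2 deviation of 989 genes with under 1000 bases of exon minus that of 5781 genes with over 5000, was 0.53 in auranofin 2 and 1.79 in WD 2, the highest. WD 5 had a score of 0.85, above auranofin 2, and a mitochondrial share of 24.2%. Results that rest on these libraries are given below with and without them.

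The label of the gene group was checked against genes that define neutrophils and their marrow precursors. Ly6g, the surface protein by which mouse neutrophils are usually sorted, had 8 counts over the 13 libraries and at most 2 in any one. Of 9 azurophil granule and promyelocyte genes none passed the filter. Mpo, myeloperoxidase, had 5 counts in all, Elane, neutrophil elastase, had 7, Ctsg, cathepsin G, had 9, and Ms4a3, a gene of granulocyte precursors, had 0 in all libraries. The others of the list were Prtn3 with 76 counts in all, Gfi1 with 59, Prss57 with 47, Cebpe with 17 and Fcnb with 1. Such genes are transcribed mainly in marrow precursors, so their low counts do not gauge mature neutrophils. Macrophage genes were abundant beside these, among them C1qb at 47.4 to 685 CPM and Cd68, a lysosomal protein, at 18.5 to 350 CPM. Lyz2, a lysozyme of myeloid cells in general, was at 186 to 3213 CPM. The defining neutrophil gene was thus at or near 0 in every library, and the values below are levels of 10 genes and not a count of neutrophils.

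The promoters of 4 of the 10 genes are shown because S100a8 with S100a9, and Mmp8 with Csf3r, were among the pairs whose levels moved together across the aortas. The windows run from 250 bases before to 50 bases after the annotated start, and are from RefSeq, build GRCm38.p6. All 10 genes had a window. Capitals mark matches to 3 motifs, searched on either strand. The C/EBP motif was searched as TTGCNNAA. The motif of PU.1, which like C/EBP is a transcription factor of myeloid cells, was searched as GAGGAA. The TATA box, a core promoter element, was searched as TATAAA. The S100a8 window is chr3:90668821-90669120 on the plus strand, that of S100a9 is chr3:90695672-90695971 on the minus strand, that of Mmp8 is chr9:7558179-7558478 on the plus strand and that of Csf3r is chr4:126024409-126024708 on the plus strand. In the S100a8 window a PU.1 match and the TATA match overlap or touch, and read as 1 run of capitals.
S100a8: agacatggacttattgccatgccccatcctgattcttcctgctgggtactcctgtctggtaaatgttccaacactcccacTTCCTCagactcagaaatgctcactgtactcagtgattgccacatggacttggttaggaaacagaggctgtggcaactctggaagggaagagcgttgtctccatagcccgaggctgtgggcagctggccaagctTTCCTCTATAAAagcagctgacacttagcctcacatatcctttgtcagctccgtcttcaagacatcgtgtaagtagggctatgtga
S100a9: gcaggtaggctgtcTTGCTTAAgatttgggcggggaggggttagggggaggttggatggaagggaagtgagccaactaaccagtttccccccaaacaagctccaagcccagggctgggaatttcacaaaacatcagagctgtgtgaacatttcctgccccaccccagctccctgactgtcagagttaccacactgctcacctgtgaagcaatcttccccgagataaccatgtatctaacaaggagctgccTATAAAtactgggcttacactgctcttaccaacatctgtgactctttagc
Mmp8: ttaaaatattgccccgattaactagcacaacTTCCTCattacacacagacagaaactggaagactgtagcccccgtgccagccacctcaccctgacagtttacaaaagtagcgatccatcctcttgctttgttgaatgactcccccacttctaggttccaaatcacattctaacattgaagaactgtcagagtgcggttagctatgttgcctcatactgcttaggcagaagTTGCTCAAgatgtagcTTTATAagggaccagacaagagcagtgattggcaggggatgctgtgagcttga
Csf3r: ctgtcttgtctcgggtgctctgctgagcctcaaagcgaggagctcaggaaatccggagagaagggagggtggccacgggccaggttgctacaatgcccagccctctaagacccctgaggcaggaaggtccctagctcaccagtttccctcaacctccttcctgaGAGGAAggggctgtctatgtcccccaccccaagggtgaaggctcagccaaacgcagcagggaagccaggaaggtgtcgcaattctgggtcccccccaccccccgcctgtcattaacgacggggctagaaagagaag
The C/EBP letters occurred in 6 of the 10 windows and in 10.8% of all 32851 windows of this length. The PU.1 letters occurred in 6 of the 10 and in 28.3% of all, and the TATA letters in 3 of the 10 and in 13.6% of all. S100a9 held a C/EBP match at position -236 and a TATA match at 1, counted from the first base of the transcript, and no PU.1 match. S100a8 held PU.1 matches, the first at -170, and a TATA match at -30. Mmp8 held all 3 kinds of match, and Csf3r held 1 PU.1 match at -86. A match describes letters in a window and does not show that a factor binds there.

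S100a8 and S100a9 encode the calcium-binding subunits of calprotectin, the most abundant cytosolic protein of neutrophils, and Retnlg encodes a resistin-like protein secreted by myeloid cells. S100a8 (ENSMUSG00000056054) had 3.25, 17.9 and 1.75 CPM with auranofin, 0.302, 0.759 and 2.85 CPM with atorvastatin, 1.78 and 2.88 CPM with the combination, and 1.00, 9.55, 0.531, 1.24 and 2.59 CPM in WD. Auranofin 2 and WD 2 were the highest libraries, and all groups overlapped. S100a9 (ENSMUSG00000056071) had 10.6, 55.5 and 3.35 CPM with auranofin, 0.454, 1.67 and 6.93 CPM with atorvastatin, 3.33 and 8.83 CPM with the combination, and 2.97, 19.8, 0.490, 5.15 and 5.78 CPM in WD. The same 2 libraries were highest, and the lowest were atorvastatin 1 and WD 3. Retnlg (ENSMUSG00000022651) had 1.75, 4.02 and 0.372 CPM with auranofin, 0.227, 0.114 and 1.01 CPM with atorvastatin, 0.666 and 1.37 CPM with the combination, and 0.286, 4.32, 0.163, 0.584 and 1.17 CPM in WD. Here WD 2 was slightly above auranofin 2, and each of the other 11 libraries was below both. The proteins encoded by S100a8 and S100a9 form a pair, and the ratio of S100a9 to S100a8 counts ran from 0.923 in WD 3, on 12 and 13 counts, to 4.15 in WD 4, with 3.10 in auranofin 2 and 2.08 in WD 2.

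**Figure D1:**
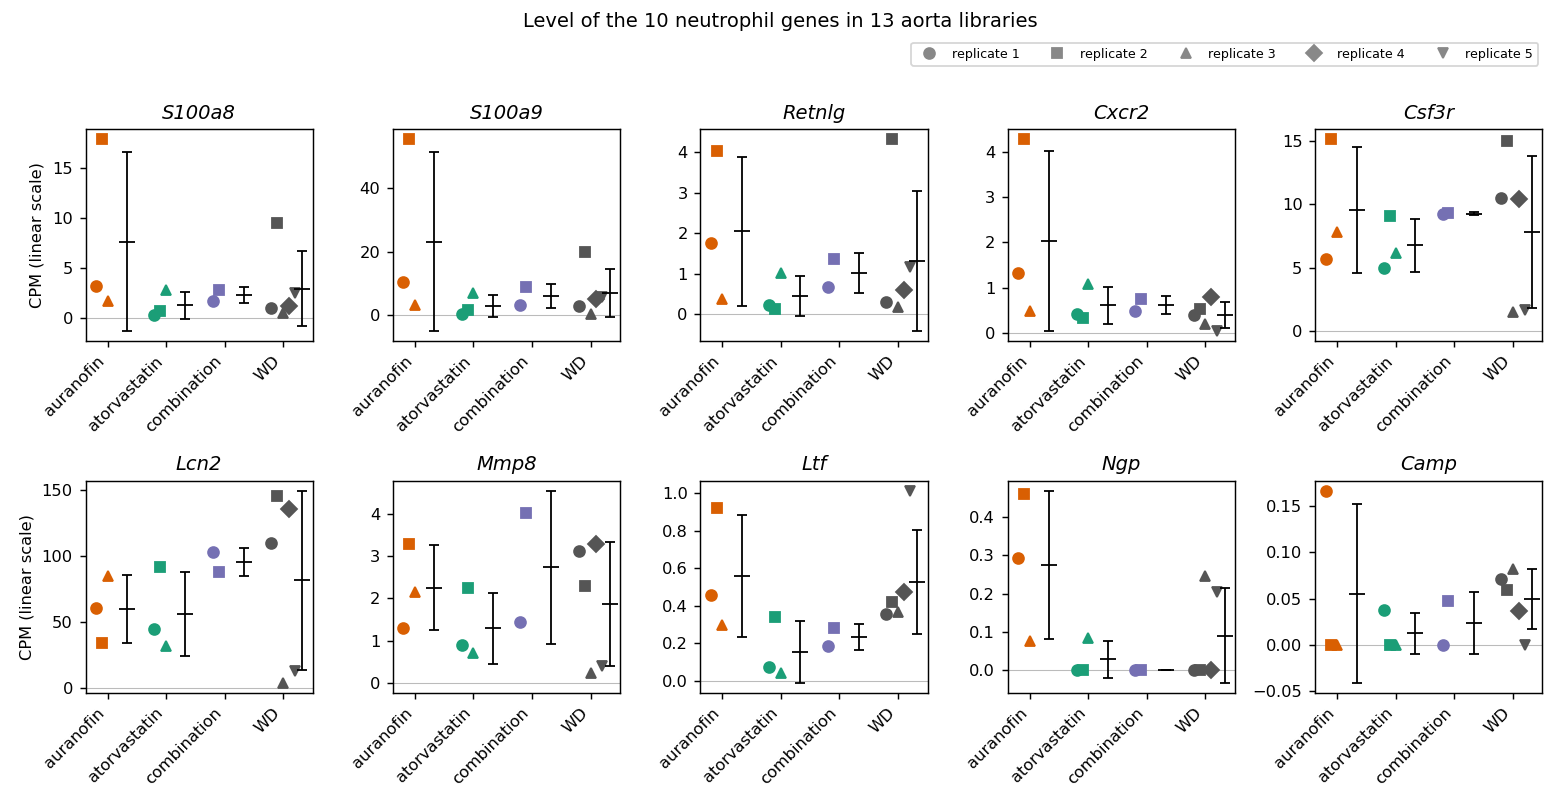
CPM (y axes, linear, 1 scale per gene) of the 10 genes in the 13 libraries, by group (x axes); marker shapes stand for replicate numbers, and the black bar beside each group is the mean ± SD. Auranofin 2 (orange square) is highest for S100a8 at 17.9 CPM and S100a9 at 55.5 CPM, and WD 3 and WD 5 (grey triangles) are lowest for Lcn2 at 3.88 and 12.7 CPM.

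Cxcr2 encodes the receptor for the chemokines Cxcl1, Cxcl2 and Cxcl5 that draws neutrophils from marrow and into tissue. Cxcr2 (ENSMUSG00000026180) had 1.33, 4.28 and 0.484 CPM with auranofin, 0.416, 0.342 and 1.09 CPM with atorvastatin, 0.481 and 0.756 CPM with the combination, and 0.394, 0.540, 0.204, 0.804 and 0.0507 CPM in WD. Auranofin 1 and auranofin 2 were above every WD library, and auranofin 3 was within the WD range. In counts these were 32, 65 and 13 with auranofin and 11, 9, 5, 22 and 1 in WD. Csf3r encodes the receptor for granulocyte colony-stimulating factor, which drives neutrophil production. Csf3r (ENSMUSG00000028859) had 5.67, 15.2 and 7.82 CPM with auranofin, 5.03, 9.11 and 6.17 CPM with atorvastatin, 9.21 and 9.35 CPM with the combination, and 10.5, 15.0, 1.55, 10.4 and 1.67 CPM in WD. WD 3 and WD 5 were below all other libraries, and the WD group spanned nearly the whole range.

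Lcn2 encodes lipocalin-2, a specific granule protein that binds bacterial siderophores and is also secreted by macrophages and epithelium. Lcn2 (ENSMUSG00000026822) had 60.7, 33.9 and 84.8 CPM with auranofin, 44.8, 91.8 and 31.7 CPM with atorvastatin, 103 and 87.5 CPM with the combination, and 109, 145, 3.88, 136 and 12.7 CPM in WD. WD 2 was the highest library and WD 3 and WD 5 were the lowest, so the spread within WD held that of all treated groups. Mmp8 encodes neutrophil collagenase, a protease of specific granules. Mmp8 (ENSMUSG00000005800) had 1.29, 3.29 and 2.16 CPM with auranofin, 0.907, 2.24 and 0.714 CPM with atorvastatin, 1.44 and 4.02 CPM with the combination, and 3.11, 2.28, 0.245, 3.29 and 0.406 CPM in WD. WD 3 and WD 5 were again lowest. Ltf encodes lactoferrin, the iron-binding protein of specific granules. Ltf (ENSMUSG00000032496) had 0.459, 0.922 and 0.298 CPM with auranofin, 0.0756, 0.342 and 0.0420 CPM with atorvastatin, 0.185 and 0.283 CPM with the combination, and 0.358, 0.420, 0.368, 0.475 and 1.01 CPM in WD. Every atorvastatin and combination library was below every WD library, by a gap of 0.342 in atorvastatin 2 to 0.358 CPM in WD 1, the nearest pair. These are low counts, at 2, 9 and 1 with atorvastatin, 5 and 6 with the combination, and 10, 7, 9, 13 and 20 in WD, so that atorvastatin 2 and WD 2 were not in that order as counts. That atorvastatin 2 and combination 2 lay below WD 2 rested on the low TMM factor of WD 2, 0.639. Auranofin 3, at 0.298 CPM, was also below every WD library.

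Ngp, neutrophilic granule protein, and Camp, the cathelicidin precursor, are among the most abundant transcripts of marrow myelocytes. Ngp (ENSMUSG00000032484) had 7, 7 and 2 counts with auranofin, 0, 0 and 2 counts with atorvastatin, 0 and 0 counts with the combination, and 0, 0, 6, 0 and 4 counts in WD. Camp (ENSMUSG00000038357) had 4, 0 and 0 counts with auranofin, 1, 0 and 0 counts with atorvastatin, 0 and 1 counts with the combination, and 2, 1, 2, 1 and 0 counts in WD. Over the 13 libraries Ngp had 28 counts and Camp had 12. All auranofin libraries had Ngp counts, and 2 of 5 WD libraries did. A count of 0 allows up to 0.111 CPM in combination 1 and 0.142 CPM in combination 2 (3 counts of the scaled library size, counting error alone). An exact permutation test, chosen after the 2 genes were seen to fail the filter, gave p = 0.143 for Ngp with auranofin against WD, two-sided over 56 splits, and an adjusted value of 0.75 over 6 tests. The other 5 exact tests gave p of 0.25 to 0.952. The few splits of groups this small keep such a p from being very low, whatever the depth. These tests could therefore not decide whether the 2 genes differed.

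Levels of different genes can be compared only per length, as CPM per 1000 bases of exon. In the auranofin group S100a9 was highest at 44.3 ± 54.1 CPM per 1000 bases (SD, n = 3), then Lcn2 at 22.8 ± 9.70 and S100a8 at 11.01 ± 12.9. In WD, Lcn2 was highest at 31.0 ± 25.9 (SD, n = 5), then S100a9 at 13.1 ± 14.5, S100a8 at 4.30 ± 5.40, Retnlg at 2.20 ± 2.92, Csf3r at 2.17 ± 1.65, Mmp8 at 0.770 ± 0.601, Ltf at 0.153 ± 0.0801 and Cxcr2 at 0.131 ± 0.0961. Ngp at 0.0733 ± 0.101 and Camp at 0.0659 ± 0.0430 came last. Between neighbours in the WD order the gap exceeded the larger SD only for Mmp8 over Ltf. The highest library held 122 times the CPM of the lowest for S100a9, 84.4 times for Cxcr2, 59.2 times for S100a8, 38.0 times for Retnlg, 37.4 times for Lcn2, 24.2 times for Ltf, 16.4 times for Mmp8 and 9.76 times for Csf3r.

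Across the 13 libraries S100a8, S100a9 and Retnlg varied together, and Lcn2, Mmp8 and Csf3r varied together. For log2(CPM + 0.5), Pearson's r was 0.97 for S100a8 with S100a9 (Spearman's rho 0.98), 0.96 for S100a8 with Retnlg (rho 0.96) and 0.93 for S100a9 with Retnlg (rho 0.95). Each had a permutation p of 1e-05, the smallest that 100000 permutations give, and an adjusted p of 9.33e-05 over 28 pairs. These relations, and those with marker lists below, pooled the treatment groups, so differences between group means enter each r, rho and p. Without the 2 libraries farthest from the median, r was 0.95, 0.91 and 0.92 in the same order. In the other set r was 0.88 for Mmp8 with Csf3r (rho 0.89), 0.84 for Lcn2 with Csf3r (rho 0.70) and 0.80 for Lcn2 with Mmp8 (rho 0.65), with adjusted permutation p of 0.00035, 0.00611 and 0.00504 for r, and 0.00063, 0.0412 and 0.0606 for rho. Without WD 3 and WD 5 these r were 0.74, 0.41 and 0.50, so the relations of Lcn2 rest largely on those 2 libraries. Between the sets r ran from 0.14 for Lcn2 with S100a8 (adjusted p 0.699 for r and 0.929 for rho) to 0.54 for S100a9 with Csf3r (adjusted permutation p 0.146 for r and 0.261 for rho).

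Cxcr2 had r = 0.73 and rho = 0.73 for S100a9 (adjusted permutation p 0.0178 and 0.0326) and r = 0.69 and rho = 0.69 for S100a8 (adjusted permutation p 0.0421 and 0.0461). Without the 2 farthest libraries these r were 0.53 and 0.47. With Csf3r it had r = 0.56 and rho = 0.47 (adjusted permutation p 0.146 and 0.261), and r = 0.65 without auranofin 1 and auranofin 2. Ltf had no adjusted permutation p under 0.05 with any of the other 7 genes, and its highest r was 0.51, with S100a9. Genes of 1 library share its depth and scaling, and no batch was named in the labels, so no value within batches can be given.

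**Figure D2:**
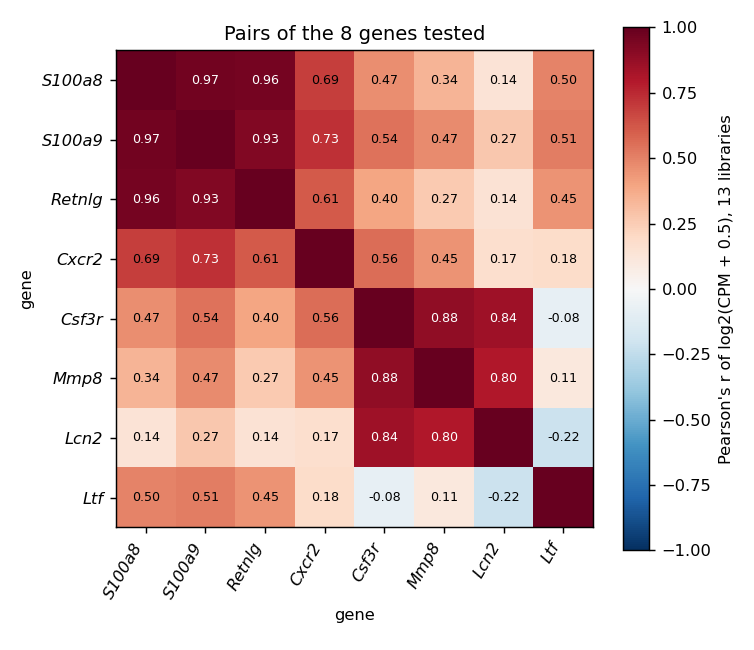
Pearson's r of log2(CPM + 0.5) over 13 libraries for each pair of the 8 genes tested (both axes list genes; colour runs from -1 to 1). High r forms a block of S100a8, S100a9 and Retnlg at 0.93 to 0.97 and a block of Csf3r, Mmp8 and Lcn2 at 0.80 to 0.88.

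Markers of other cells moved with the genes of both sets. Csf3r followed the macrophage list (10 genes, all tested), with r = 0.94 and rho = 0.96 against the mean log2 level of the list (adjusted permutation p 0.00096 for each over 96 relations), and r = 0.91 without WD 3 and WD 5. Mmp8 had r = 0.90 and rho = 0.84 with that list (adjusted permutation p 0.00288 and 0.0185; r = 0.78 without WD 3 and WD 5). Lcn2 had r = 0.87 and rho = 0.82 (adjusted permutation p 0.00538 and 0.0185; r = 0.67 without them). S100a8 had r = 0.37 and rho = 0.30 (adjusted permutation p 0.364 and 0.472). The summed level of the macrophage list was 1714 to 5781 CPM with auranofin, 1279 to 4707 CPM with atorvastatin, 4190 and 4822 CPM with the combination, and 579 to 8361 CPM in WD, where WD 3 and WD 5 were lowest. None of its genes was at 0 in any library, and Lyz2, of myeloid cells in general, was among them. The part of macrophage RNA in the levels of Csf3r, Mmp8 and Lcn2 was not tested.

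The list of inflammatory monocytes (6 genes) moved with genes of both sets. Its gene Chil3 is also counted below among the further granule and secreted genes of neutrophils. It had r = 0.79 and rho = 0.71 with S100a9 (adjusted permutation p 0.0143 and 0.0489), r = 0.77 and rho = 0.76 with Csf3r (adjusted permutation p 0.0205 and 0.0369), r = 0.74 and rho = 0.63 with S100a8 (adjusted permutation p 0.0232 and 0.0979) and r = 0.70 and rho = 0.72 with Mmp8 (adjusted permutation p 0.0387 and 0.0463). Without auranofin 2 and WD 2 these r were 0.60, 0.68, 0.41 and 0.73 in the same order. That list summed to 192 to 242 CPM with auranofin, 180 to 201 CPM with atorvastatin, 155 and 227 CPM with the combination, and 131 to 301 CPM in WD. The list of eosinophils, basophils and mast cells (10 genes, 5 tested) had r = 0.82 and rho = 0.79 with S100a9 (adjusted permutation p 0.0119 and 0.0355), and r = 0.81 without auranofin 2 and WD 2. It had r = 0.74 and rho = 0.74 with S100a8 (adjusted permutation p 0.0286 and 0.0415; r = 0.73 without those libraries). It summed to 12.7 to 38.5 CPM with auranofin, 5.71 to 17.1 CPM with atorvastatin, 13.2 and 44.5 CPM with the combination, and 9.03 to 23.6 CPM in WD. Cxcr2 had r = 0.83 and rho = 0.62 with the endothelial list of 4 genes (adjusted permutation p 0.0257 and 0.102). With 6 smooth muscle genes it had r = -0.82 and rho = -0.62 (adjusted permutation p 0.0319 and 0.102). With 6 T cell genes it had r = 0.73 and rho = 0.33 (adjusted permutation p 0.04 and 0.433). Without auranofin 1 and auranofin 2 these r were 0.41, -0.53 and 0.01. The smooth muscle relation was not particular to Cxcr2. Mmp8 had r = -0.67 and rho = -0.87 with that list (adjusted permutation p 0.0319 and 0.0134). Csf3r had r = -0.64 and rho = -0.78 (adjusted permutation p 0.0767 and 0.0355). S100a9 had r = -0.73 and rho = -0.62 (adjusted permutation p 0.0286 and 0.102). S100a8 had r = -0.71 and rho = -0.54 (adjusted permutation p 0.04 and 0.179). S100a8 also had r = 0.69 and rho = 0.45 with the T cell list (adjusted permutation p 0.0425 and 0.293). With 6 B cell genes it had r = 0.73 and rho = 0.49 (adjusted permutation p 0.036 and 0.236). Without auranofin 2 and WD 2 the r of S100a8 was -0.25 for smooth muscle, 0.28 for T cells and 0.48 for B cells. Whether the relations of the 2 sets to a list differ was not tested, nor was the part of these cells in the levels.

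S100a8 followed the erythroid list (8 genes, all tested, 4 of them haemoglobin genes), with r = 0.83 and rho = 0.78 (adjusted permutation p 0.00538 and 0.0355), and r = 0.70 without auranofin 2 and WD 2. Retnlg had r = 0.80 and rho = 0.76 with that list (adjusted permutation p 0.0131 and 0.0369; r = 0.62 without those libraries). S100a9 had r = 0.76 and rho = 0.71 (adjusted permutation p 0.0209 and 0.0463; r = 0.55 without those libraries). The erythroid list summed to 2520 to 9600 CPM with auranofin, 1417 to 5071 CPM with atorvastatin, 2607 and 5121 CPM with the combination, and 1115 to 11384 CPM in WD, with the highest values in WD 2 and auranofin 2. S100a8 also followed the mitochondrial share of counts, with r = 0.86 and rho = 0.73 (adjusted permutation p 0.00538 and 0.042; r = 0.61 without those libraries), and the score of short against long genes, with r = 0.73 and rho = 0.65 (adjusted permutation p 0.0356 and 0.0847; r = 0.56 without them). The exons of S100a8, S100a9 and Retnlg cover 694, 522 and 593 bases, against 2623 for Lcn2, 2425 for Mmp8 and 3609 for Csf3r. The part of blood in the tissue, of RNA quality and of transcript length in these levels was not tested.

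**Figure D3:**
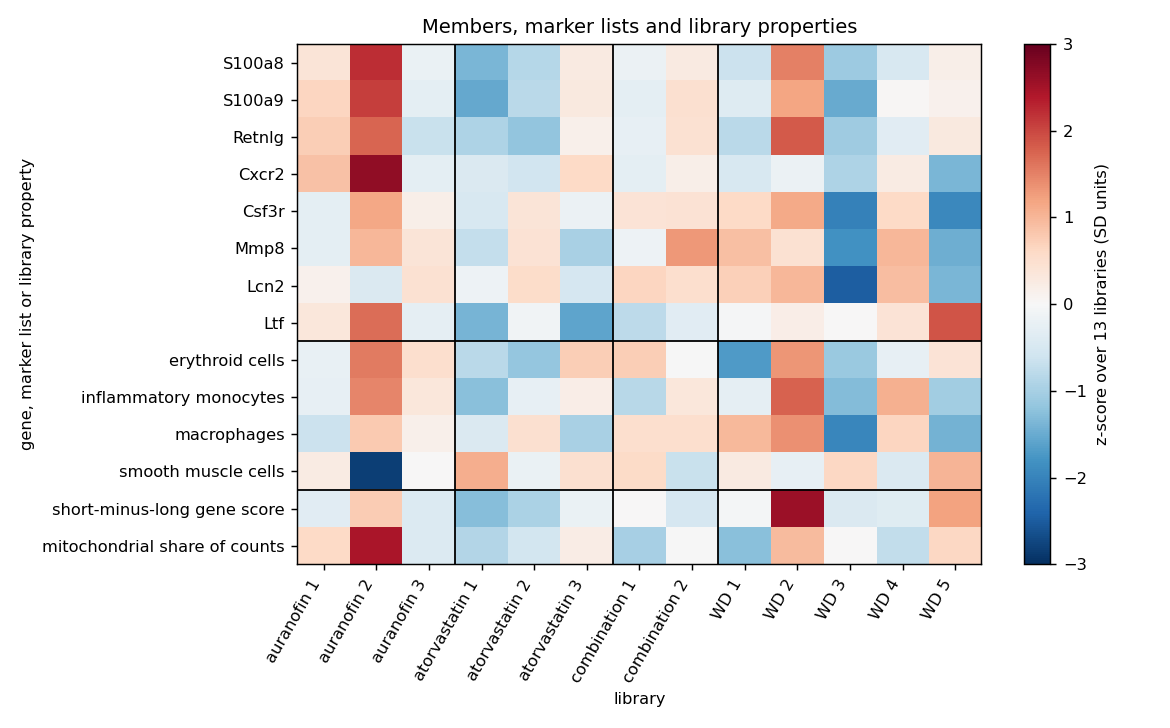
Z-scores over the 13 libraries (columns, by group) of the 8 tested genes, of the mean log2 level of 4 marker lists, and of the score of short against long genes and the mitochondrial share (rows). Auranofin 2 and WD 2 are high for S100a8, S100a9, Retnlg and the erythroid list, and WD 3 and WD 5 are low for Csf3r, Mmp8, Lcn2 and macrophages.

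**Figure D4:**
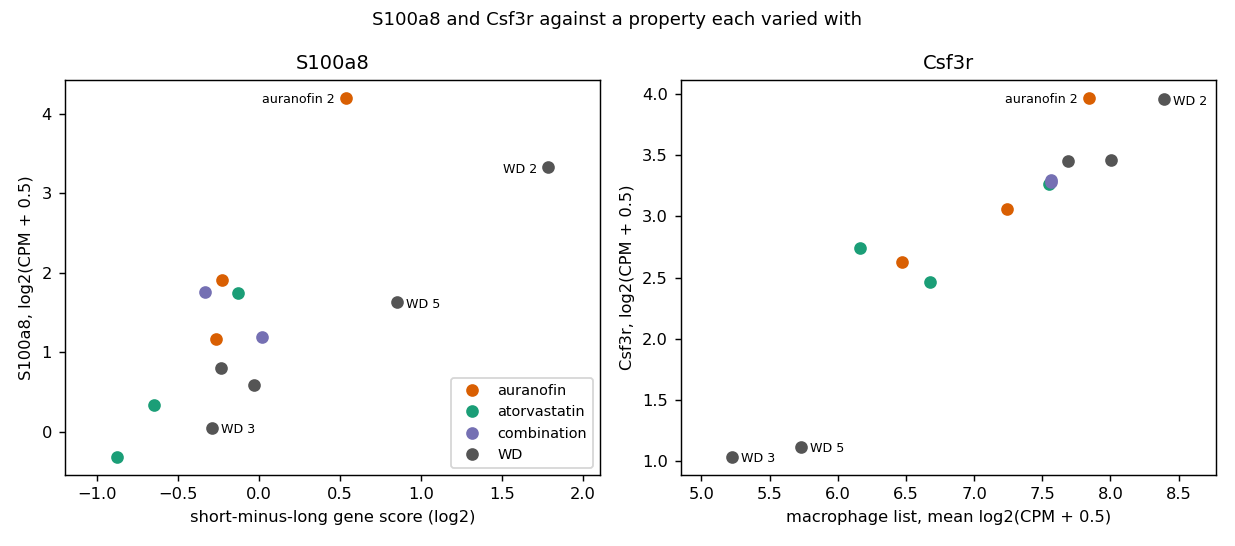
Left, S100a8 as log2(CPM + 0.5) against the score of short against long genes (log2); right, Csf3r on the same scale against the mean log2(CPM + 0.5) of the macrophage list; each point is 1 library, coloured by group. Auranofin 2 and WD 2 lie at the top of both panels, and WD 3 and WD 5 lie apart at the lower left of the Csf3r panel, where r was 0.94 over the 13 libraries and 0.91 without these 2.

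Auranofin was set against WD to ask whether the drug changed these genes in the atherosclerotic aorta. No gene of the 18055 passed an adjusted p of 0.05 in edgeR's quasi-likelihood test with Benjamini-Hochberg adjustment, and neither did any of the 8 tested. At an unadjusted p under 0.05 there were 1160 genes, or 6.42%, with 1510 in DESeq2 and 1708 in limma-voom, and 1 of the 8, Cxcr2. Leaving out 1 library moved the count of 1160 between 366, without auranofin 2, and 2103, without WD 4. DESeq2 called 2 genes after adjustment and limma-voom 0, none of them one of the 8. Cxcr2 averaged 2.03 ± 1.99 CPM with auranofin (SD, n = 3) and 0.399 ± 0.293 CPM in WD (SD, n = 5), a log2 fold change of 2.30 (SE 0.74) with an adjusted p of 0.677 in edgeR. S100a9 averaged 23.1 ± 28.2 CPM with auranofin and 6.84 ± 7.54 CPM in WD, with a log2 fold change of 1.76 (SE 1.03, edgeR adjusted p 0.677). S100a8 averaged 7.64 ± 8.93 CPM with auranofin and 2.98 ± 3.75 CPM in WD, with a log2 fold change of 1.37 (SE 0.95, edgeR adjusted p 0.682). The other log2 fold changes were 0.66 (SE 0.98) for Retnlg, 0.28 (SE 0.63) for Csf3r, 0.25 (SE 0.74) for Mmp8, 0.06 (SE 0.60) for Ltf and -0.44 (SE 0.86) for Lcn2. Of the 8 genes 7 were fitted higher, against 46.4% of all genes tested, and their median log2 fold change was 0.47, against -0.04 over all genes.

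These values depended on 2 libraries. Without auranofin 2 the log2 fold change was -0.23 for S100a8, 0.04 for S100a9, -0.26 for Retnlg and 1.16 for Cxcr2, and the median of the 8 genes was -0.19. Without WD 2 it was 2.51 for S100a8, 2.68 for S100a9 and 1.89 for Retnlg, and the median was 1.27. Without both it was 0.92 (SE 0.77) for S100a8, 0.98 (SE 0.98) for S100a9, 0.99 (SE 0.93) for Retnlg and 1.31 (SE 0.78) for Cxcr2, with an edgeR adjusted p of 0.915 for each. With the score of short against long genes as a covariate, a choice made after the data were seen, the log2 fold change was 2.37 (SE 0.49) for S100a8, 2.43 (SE 0.76) for S100a9, 1.96 (SE 0.61) for Retnlg and 2.31 (SE 0.74) for Cxcr2, and none passed (edgeR adjusted p 0.58 for each). Auranofin 2 was also the highest library for B cell markers, at 678 CPM summed over 6 genes against 19.8 to 67.0 CPM in the other 12 libraries, and for endothelial markers, at 2200 CPM over 4 genes against 475 to 890 CPM in the other 12. Its smooth muscle markers were the lowest, at 5913 CPM over 6 genes against 10066 to 26600 CPM in the others. T cell markers were highest in auranofin 2 too, at 29.1 CPM over 6 genes, against 3.44 to 17.7 CPM in the others. Brown adipocyte markers summed to 501 to 2878 CPM over 7 genes with auranofin, highest in auranofin 2, and to 132 to 929 CPM in WD. Of those 7 genes 6 were fitted higher with auranofin at an unadjusted p under 0.05 and none passed after adjustment, with a median log2 fold change of 1.47. In the same way 4 of the 6 B cell, 3 of the 4 endothelial and 2 of the 6 T cell genes were higher. Over all genes 6.42% reached that p in either direction. Auranofin 2 was the highest library for Ucp1, Cidea, Elovl3, Cox7a1 and Cox8b, and these counts are not given without it. The part of these cells in the auranofin values was not tested.

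**Figure D5:**
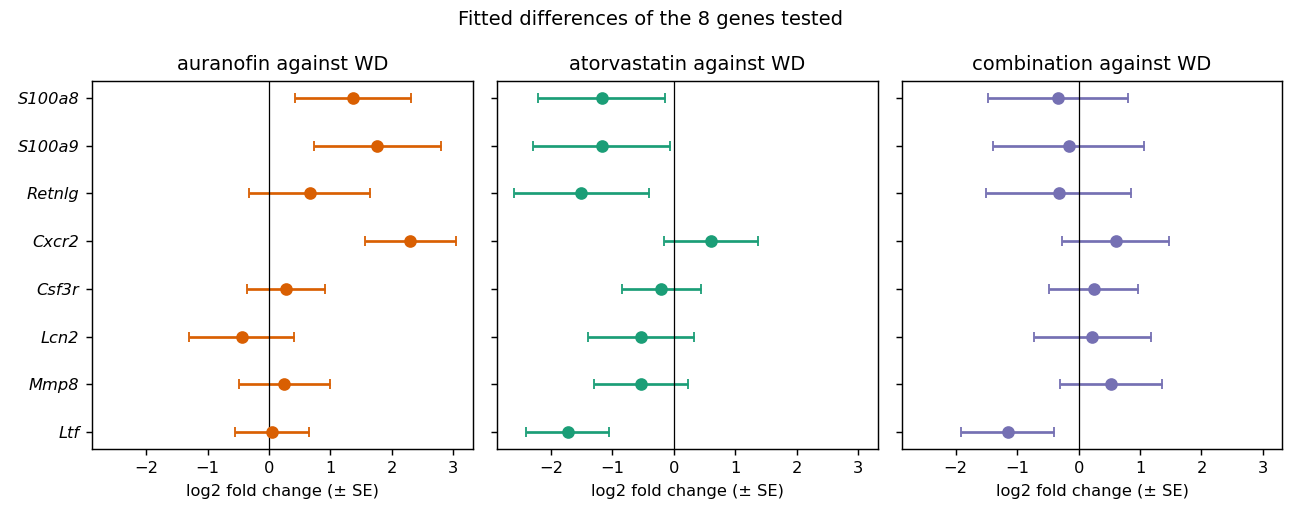
Log2 fold change (x axes, ± SE) of the 8 genes tested (y axes) with auranofin, atorvastatin and the combination, each against WD, from edgeR. Cxcr2 with auranofin, at 2.30, lies farthest from 0, then S100a9 with auranofin, at 1.76, and Ltf with atorvastatin, at -1.72. None passed the adjusted threshold.

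Atorvastatin was set against WD in the same way. None of the 8 genes passed, and no gene of the 18055 did in edgeR's quasi-likelihood test with Benjamini-Hochberg adjustment, DESeq2 or limma-voom. An unadjusted p under 0.05 was reached by 2612 genes, or 14.5%, with 3227 in DESeq2 and 3706 in limma-voom, and by 1 of the 8, Ltf. Leaving out 1 library moved that count between 316, without atorvastatin 1, and 4121, without WD 3. Ltf averaged 0.153 ± 0.164 CPM with atorvastatin (SD, n = 3) and 0.527 ± 0.276 CPM in WD (SD, n = 5), a log2 fold change of -1.72 (SE 0.67) with an edgeR adjusted p of 0.343. Over the alternatives its adjusted p ran from 0.191 to 1.00. It was the only gene of the 8 whose libraries did not overlap those of WD, and 2.87% of all genes tested lay wholly lower in this way. For Ltf the order of atorvastatin 2 and WD 2 rested on the low TMM factor of WD 2. The log2 fold change of Ltf was -3.03 without atorvastatin 2 and -1.30 without atorvastatin 3. Of the others, Retnlg had a log2 fold change of -1.50 (SE 1.10), S100a8 of -1.17 (SE 1.04) and S100a9 of -1.17 (SE 1.12). Without WD 2 these were -0.28 (SE 0.93), -0.03 (SE 0.89) and -0.26 (SE 1.05), and without atorvastatin 3 they were -2.86, -2.46 and -2.67. The remaining log2 fold changes placed Mmp8 at -0.54 (SE 0.76), Lcn2 at -0.54 (SE 0.86), Csf3r at -0.21 (SE 0.64) and Cxcr2 at 0.60 (SE 0.77). Of the 8 genes 7 were fitted lower, against 50.8% of all genes, with a median of -0.86, against -0.01 over all genes. Without WD 2 that median was -0.24. The score of short against long genes was -0.88, -0.65 and -0.13 with atorvastatin and -0.03, 1.79, -0.29, -0.24 and 0.85 in WD. With it as a covariate the log2 fold change was 1.14 for S100a8, 0.67 for S100a9, 0.88 for Retnlg and 0.30 for Csf3r, each turned round, and -1.34 (SE 0.79) for Ltf.

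The combination was set against WD with 2 libraries. None of the 8 genes passed an adjusted p of 0.05 or an unadjusted p of 0.05 in edgeR's quasi-likelihood test. Of all genes, 263, or 1.46%, had an unadjusted p under 0.05 and 0 passed after adjustment. DESeq2 called 4 genes and limma-voom 0, none of them one of the 8, with 372 and 243 at an unadjusted p under 0.05. Leaving out 1 library moved the count of 263 between 121, without combination 2, and 808, without combination 1. Ltf averaged 0.234 ± 0.0697 CPM with the combination (SD, n = 2) and 0.527 ± 0.276 CPM in WD (SD, n = 5), a log2 fold change of -1.16 (SE 0.75, edgeR adjusted p 0.997). Both combination libraries were below every WD library for Ltf, as were 1.75% of all genes tested. For Ltf the order of combination 2 and WD 2, at 6 and 7 counts, rested on the low TMM factor of WD 2. This comparison and those of auranofin and atorvastatin share the WD libraries. Mmp8 had a log2 fold change of 0.53 (SE 0.83), Cxcr2 of 0.61 (SE 0.87), Csf3r of 0.25 (SE 0.72), Lcn2 of 0.23 (SE 0.96), S100a9 of -0.16 (SE 1.22), Retnlg of -0.33 (SE 1.17) and S100a8 of -0.34 (SE 1.14). Of the 8 genes 4 were fitted higher, against 49% of all genes, and their median was 0.03, against -0.01. Without WD 2 S100a8 had 0.80, S100a9 0.75 and Retnlg 0.90 on the log2 scale, each turned round. Csf3r and Lcn2 averaged 9.28 ± 0.103 and 95.1 ± 10.7 CPM with the combination (SD, n = 2), against 7.83 ± 5.97 and 81.3 ± 68.0 CPM in WD (SD, n = 5).

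The layout crosses the drugs, so each drug was also fitted over all 13 libraries in an additive model. For auranofin given or not, all 8 genes were fitted higher, against 44.6% of all genes, with a median log2 fold change of 0.72, against -0.03 over all genes. Cxcr2 had 1.50 (SE 0.65), S100a9 1.49 (SE 0.79) and S100a8 1.17 (SE 0.73), and the edgeR adjusted p was 0.999 for each. At an unadjusted p under 0.05 there was 1 of the 8, Cxcr2, against 2.64% of all genes. Without auranofin 2 these log2 fold changes were 0.66, 0.50 and 0.27, and the median of the 8 was 0.34. The count behind that share, 477 genes, was 162 without auranofin 2 and 1414 without combination 1. For atorvastatin given or not, all 8 were fitted lower, against 49.6% of all genes, with a median of -0.77, against 0.00. Ltf averaged 0.186 ± 0.129 CPM with atorvastatin given in 5 libraries and 0.539 ± 0.272 CPM without it in 8 libraries (SD), a log2 fold change of -1.51 (SE 0.50, edgeR adjusted p 0.551). S100a9 had -1.47 (SE 0.85), S100a8 -1.38 (SE 0.78) and Retnlg -1.29 (SE 0.81). Without WD 2 S100a8 had -0.72, Retnlg -0.60 and the median of the 8 was -0.43, and without auranofin 2 S100a9 had -0.83. At an unadjusted p under 0.05 there was 1 of the 8, Ltf, against 6.92% of all genes, or 1249 genes, a count of 348 without atorvastatin 1 and 2368 without combination 1. With the length score as a covariate the median of the 8 was 0.07, and in limma-voom it was 0.04.

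Whether auranofin acted differently with and without atorvastatin was tested as an interaction. No gene passed in edgeR's quasi-likelihood test, where 549 genes, or 3.04%, had an unadjusted p under 0.05 and none of the 8 did. That count was 282 without atorvastatin 1 and 1152 without WD 4. DESeq2 called 9 genes and limma-voom 0, none of them one of the 8, with 691 and 1597 at an unadjusted p under 0.05. Cxcr2 was nearest, with an interaction of -2.29 (SE 1.23) on the log2 scale and an edgeR adjusted p of 0.795. Without auranofin 2 it was -1.16. Its log2 fold change against WD was 2.30 with auranofin, 0.60 with atorvastatin and 0.61 with the combination. Lcn2 had an interaction of 1.20 (SE 1.35) and Mmp8 of 0.82 (SE 1.19). S100a8 and S100a9 had -0.53 (SE 1.59) and -0.75 (SE 1.71), which turned to 1.07 and 0.97 without auranofin 2.

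Other genes transcribed in neutrophils were read from lists. Which cells transcribed them in these aortas was not tested, so the values are levels of genes and not readings of neutrophils. Of 13 further surface receptors 11 were tested and none passed in any comparison. With auranofin 7 were fitted higher and 4 lower than in WD (median log2 fold change 0.12), with atorvastatin 1 and 10 (median -0.90), and with the combination 2 and 9 (median -0.54). Among the highest in CPM, Cxcr4, the receptor that retains neutrophils in marrow, had -0.30, -0.27 and -0.09 with auranofin, atorvastatin and the combination on the log2 scale, each against WD. Clec4d, a C-type lectin receptor of myeloid cells, had 0.00, -1.18 and -0.41.

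Of 19 further granule and secreted genes 18 were in the table and 11 were tested, and none passed. With auranofin 8 were fitted higher and 3 lower than in WD (median 0.44), with atorvastatin 3 and 8 (median -0.45), and with the combination 6 and 5 (median 0.08). Hp, haptoglobin, which binds free haemoglobin, had a log2 fold change of 0.16, 0.12 and 1.02 in the same order of groups. Mmp9, gelatinase B of the gelatinase granules, had 0.53, -0.11 and 0.15. Slpi, a secreted inhibitor of neutrophil elastase chosen after its values were seen, had 0.44 (SE 0.83), -2.40 (SE 0.96) and -1.28 (SE 1.04), with an edgeR adjusted p of 0.88, 0.343 and 0.997. It ran from 0.151 CPM in atorvastatin 1 to 7.77 CPM in auranofin 2. Ceacam10, also chosen after its values were seen, did not pass the filter and had 50 of its 69 counts in auranofin 2.

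The ligands and partners of the 10 genes gave 13 tested genes of 16, and none passed. With auranofin 4 were fitted higher and 9 lower than in WD (median -0.21), with atorvastatin 6 and 7 (median -0.20), and with the combination 7 and 6 (median 0.00). Timp1, an inhibitor of matrix metalloproteinases such as Mmp8, had a log2 fold change of -1.30 (SE 0.73) with auranofin, -0.72 (SE 0.71) with atorvastatin and -0.34 (SE 0.81) with the combination. WD 2 was its highest library, at 454 CPM against a median of 103 CPM over all libraries, and no value without WD 2 is given. Cxcl12, the ligand of Cxcr4, had -0.27, -0.20 and -0.04. Cxcl1, a ligand of Cxcr2 chosen after its values were seen, had -0.70 (SE 0.74), -0.31 (SE 0.72) and -0.17 (SE 0.83). Csf3, granulocyte colony-stimulating factor and the ligand of Csf3r, had 45 counts in all and was not tested.

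The genes most like the 10 were ranked by Spearman's rho, over the 13 libraries, with the mean z-score of the 8 tested genes, among 15825 genes with a symbol and a mean log2(CPM + 0.5) of at least 0. Among the highest were Srgn (rho 0.97), the proteoglycan core of secretory granules, Arl6ip1 (0.94), Irf1 (0.93), an interferon-regulated transcription factor, Snx2 (0.93), Atp6v1d (0.92), a subunit of the vacuolar proton pump, Ccl6 (0.90), a chemokine of myeloid cells, Gm43042 and Mndal (0.90), Dram2 and Ormdl2 (0.89) and Procr (0.88), the endothelial protein C receptor. For single genes the nearest by Pearson's r were Ms4a6d for Csf3r (0.99), Clec5a for Mmp8 (0.97), Slfn4 for Cxcr2 (0.95), Cmtm8 for Retnlg (0.94), Gdpd1 for Lcn2 (0.94), Procr for S100a9 (0.93), Cd3d for S100a8 (0.93) and Gm4017 for Ltf (0.92). These are descriptions of 13 libraries with shared depth and composition.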

How the data were processed

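Whole-aorta RNA was made into non-stranded poly-A libraries and sequenced on DNBseq, per the labels' protocols. The deposited values are raw read counts per gene, and the submitters' processing notes name STAR 2.6.1d, featureCounts, Subread 1.6.3 and GRCm39. The 13 libraries held 19703683 to 26079566 counts, and 0 pairs were identical. Replicates are separate samples that the labels do not tie to single mice, so p-values measure the spread between samples, which may be technical. No other annotated gene overlapped exons of the 10 genes.

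Counts were filtered with filterByExpr over the 4 groups, scaled with TMM and fitted over all 13 libraries with edgeR 4.0.16 (R 4.3.3; glmQLFit, robust), with Benjamini-Hochberg adjustment over 18055 genes and a threshold of 0.05. The SE is the log2 fold change divided by the root of F. Relations between libraries used log2(CPM + 0.5) and permutation tests (scipy 1.17.1), and figures used matplotlib 3.10.9. Exon lengths came from a GRCm38 annotation and not from the build of the counts, as did the promoters. All 10 genes are named in every comparison. Of each list, genes past the threshold and up to 4 of the highest CPM could be named, and others are marked as chosen later. Some genes that this rule names are not reported here. The genes and lists were chosen with earlier results of these data known. The scripts were tested on simulated data. Alternatives were DESeq2 1.42.0, limma-voom 3.58.1 with quality weights, RLE size factors, no filter, a filter of 1 CPM in 2 libraries, the compared groups alone, a replicate block, an adjusted threshold of 0.1, and leaving out each library. Leaving out auranofin 2 and WD 2 together, and the score of short against long genes as a covariate, were added after seeing the data. The limits given for counts of 0 cover counting error only, whereas each SE and SD includes the spread between libraries.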

Additional observations from a re-analysis of the deposited data

Results flagged for a closer look

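In WD, the 1 group of a size for this check, the highest library stood far from the other 4 for 4 of 12 measures tested (the 10 genes, the mitochondrial share and the score of short against long genes). A gap was called far when it exceeded 0.71 of the whole range of the group. About 5% of groups pass that limit by chance when values follow a normal distribution. The CPM were taken on a linear scale, where the rate was not tested and may be higher. WD 2 had 9.55 CPM for S100a8, where the next library had 2.59 CPM, a gap of 0.772 of the range. WD 2 had 19.8 CPM for S100a9, where the next had 5.78 CPM, a gap of 0.726 of the range. WD 2 had 4.32 CPM for Retnlg, where the next had 1.17 CPM, a gap of 0.759 of the range. These 3 genes vary together across libraries, so the calls are not separate ones. WD 5 had 1.01 CPM for Ltf, where the next had 0.475 CPM, a gap of 0.822 of the range, on 20 counts.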

How the results depend on the processing

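None of the 8 tested genes passed an adjusted p of 0.05 under any alternative run. Of 450 values of single genes outside the runs that leave out 1 library, 45 changed sign, and of 496 within those runs 49 did. The cause was not tested. edgeR called 0 genes in all 6 comparisons. DESeq2 called 2 for auranofin against WD, 4 for the combination against WD and 9 for the interaction, and the covariate of short against long genes gave 1 for auranofin against WD. The values that follow are log2 fold changes that changed sign or moved.

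In limma-voom, auranofin against WD gave -0.0057 for Ltf, 0.072 for Lcn2, -0.23 for Mmp8 and -0.087 for Csf3r, and atorvastatin against WD gave 0.018 for Lcn2. The combination against WD gave 1.03 for S100a8, 0.85 for S100a9 and 1.29 for Retnlg. Atorvastatin given or not gave 0.31 for Lcn2, 0.18 for Mmp8, 0.061 for Retnlg, 0.017 for Cxcr2, 0.24 for Csf3r and 0.039 for the median of the 8. The interaction gave 0.078 for S100a8 and 0.30 for S100a9.

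Without auranofin 2 and WD 2, a choice made after seeing the data, auranofin against WD gave -0.52 for Ltf, 0.18 for Lcn2 and -0.020 for Mmp8, and atorvastatin against WD gave 0.17 for Csf3r. The combination against WD gave 0.79 for S100a8, 0.75 for S100a9 and 0.89 for Retnlg. Auranofin given or not gave -0.069 for Ltf. Atorvastatin given or not gave 0.012 for Lcn2, 0.22 for Cxcr2 and 0.28 for Csf3r, and the interaction gave 0.034 for S100a9.

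With the score of short against long genes as covariate, also chosen after seeing the data, atorvastatin against WD gave 1.14 for S100a8, 0.67 for S100a9, 0.88 for Retnlg, 0.30 for Csf3r and 0.49 for the median. The combination against WD gave 1.63 for S100a8, 1.50 for S100a9 and 1.69 for Retnlg. Atorvastatin given or not gave 0.12 for Lcn2, 0.32 for S100a8, 0.020 for S100a9, 0.31 for Retnlg, 0.21 for Csf3r and 0.070 for the median. The interaction gave -1.15 for Retnlg, -0.19 for Csf3r and -0.67 for the median.

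With the replicate number as a block, auranofin against WD gave 0.055 for Lcn2, the combination against WD gave 0.0034 for S100a9, and the interaction gave -0.45 for Retnlg and -0.074 for Csf3r. The block called 0 genes in each comparison, and at an unadjusted p under 0.05 it left 1301 genes for atorvastatin against WD, in place of 2612, and 164 for the combination against WD, in place of 263. Of 15 pairs of libraries with the same number, 7 had deviations correlated above 0.1 (r -0.34 to 0.49, highest for WD 2 with auranofin 2). The labels do not say whether libraries of the same number were handled together, and these values do not decide it.

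Leaving out 1 library at a time, auranofin against WD ran from -0.19 to 1.27 for the median, -0.47 to 0.42 for Ltf, -0.12 to 0.55 for Mmp8, -0.23 to 2.51 for S100a8, -0.26 to 1.89 for Retnlg and -0.21 to 0.65 for Csf3r. Atorvastatin against WD ran from -0.085 to 1.03 for Cxcr2 and -0.48 to 0.16 for Csf3r. The combination against WD ran from -0.089 to 0.54 for Lcn2, -0.37 to 1.09 for Mmp8, -0.72 to 0.80 for S100a8, -1.02 to 0.75 for S100a9, -0.92 to 0.90 for Retnlg and -0.025 to 0.61 for Csf3r, and from 0 to 10 genes called, with 10 without combination 1. In those runs the lone combination library is assumed to vary like the other groups. Auranofin given or not ran from -0.047 to 0.50 for Ltf and -0.12 to 0.28 for Lcn2. Atorvastatin given or not ran from -0.21 to 0.19 for Lcn2, -0.56 to 0.00049 for Mmp8, -0.83 to 0.19 for Cxcr2 and -0.30 to 0.080 for Csf3r. The interaction ran from -0.45 to 1.00 for the median, -0.085 to 1.48 for Mmp8, -1.67 to 1.07 for S100a8, -1.67 to 0.97 for S100a9, -0.71 to 1.87 for Retnlg and -0.19 to 0.67 for Csf3r, and from 0 to 2 genes called, with 2 without combination 1.

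Depth limits Ngp, Camp and Ltf most. With 2 combination libraries, the interaction and the combination comparison are the least precise.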
